A study of Homo sapiens and Mus musculus with 56 samples.

Results

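The 41 genes described here encode the DNA replication machinery: the proteins that license origins, unwind DNA, copy it, join the fragments, supply nucleotides and rebuild chromatin behind the fork. They are a named list, matched by gene symbol to the probe sets of Affymetrix arrays and to the mouse orthologs. Each gene is read by the probe set with the highest mean log2 value in that cell model. All 41 had such a probe set in each human line and 40 had one in mouse, among 13365 to 14209 genes tested per model. Chaf1a was the gene not used in mouse.

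The study treated leukemia cells with EPZ004777, an inhibitor of DOT1L, which methylates histone H3 on a lysine. Other cultures received MI-2-2, which blocks the binding of menin to KMT2A (MLL), the combination of both compounds, or the solvent DMSO. RS4;11 and SEM are lines of B-precursor leukemia that carry the KMT2A-AFF1 fusion. REH is of the same lineage and has no KMT2A rearrangement. These lines received 3 µM EPZ004777, 10 µM MI-2-2, both, or DMSO for 6 days. MOLM-13, a myeloid line with the KMT2A-MLLT3 (MLL-AF9) fusion, and mouse leukemic cells transformed by MLL-AF9 received 3 µM EPZ004777, 3 µM MI-2-2, both, or DMSO for 4 days. The combination doses are read here as those of the single compounds. The mouse cells grew in interleukin-6, interleukin-3 and stem cell factor, and the number of separate transformations behind them is not given in the sources used here. There were 56 arrays, 44 human and 12 mouse, in 20 groups. A group held 3 arrays except the DMSO groups of RS4;11 and SEM and the MI-2-2 and combination groups of SEM, which held 2. The arrays are labelled as biological replicates of 1 line or culture each, so the tests below measure the spread between cultures of that model.

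Replication starts from origins bound by the origin recognition complex, where CDC6 and CDT1 load the ring of MCM proteins before S phase. CDC45 and the GINS complex turn that ring into the active helicase, after which DNA polymerase alpha and primase prime both strands and polymerases epsilon and delta extend them with the sliding clamp PCNA. Many of these genes are transcribed together as cells enter S phase, largely through the E2F factors and their pocket-protein partners, so that dividing cells carry far more of the mRNAs than resting or differentiated cells.

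Of the 11 members called in at least 4 of the 15 comparisons with DMSO, 10 had a promoter window in the table, and 6 of these held an E2F motif. Promoter letters are shown for 5 with a match, since these recur in the results below, and for 1 without. The windows run from 250 bases before to 50 bases after each start site in RefSeq's GRCh38.p14 annotation, 5′ to 3′ on the gene's strand. Capitals mark a match to 1 of 4 E2F motifs, TTTCCCGC, TTTGGCGC, TTTCGCGC or TTTGCCGC, searched on both strands. The primase gene PRIM1 is shown for contrast, since its window holds none of the 4. RFC5, POLD1 and FEN1, also called at least 4 times, held none either.
GINS1: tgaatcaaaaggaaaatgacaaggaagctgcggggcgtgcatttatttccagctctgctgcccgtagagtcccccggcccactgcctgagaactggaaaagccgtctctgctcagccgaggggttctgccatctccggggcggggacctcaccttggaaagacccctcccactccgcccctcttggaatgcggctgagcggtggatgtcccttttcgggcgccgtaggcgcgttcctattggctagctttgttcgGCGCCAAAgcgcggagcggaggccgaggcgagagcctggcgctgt
GINS2: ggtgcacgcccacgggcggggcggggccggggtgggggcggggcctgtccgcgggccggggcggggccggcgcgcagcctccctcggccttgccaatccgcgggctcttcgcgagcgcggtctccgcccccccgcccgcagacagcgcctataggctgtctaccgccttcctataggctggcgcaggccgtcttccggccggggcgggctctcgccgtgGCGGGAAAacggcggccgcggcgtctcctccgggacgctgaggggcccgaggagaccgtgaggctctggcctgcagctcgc
CDT1: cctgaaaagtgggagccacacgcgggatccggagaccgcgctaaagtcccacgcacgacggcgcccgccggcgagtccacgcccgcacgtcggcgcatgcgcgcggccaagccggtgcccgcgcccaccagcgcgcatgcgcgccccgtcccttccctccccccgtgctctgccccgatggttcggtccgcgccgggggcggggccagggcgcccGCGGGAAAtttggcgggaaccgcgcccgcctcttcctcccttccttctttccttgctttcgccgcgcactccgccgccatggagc
CDC6: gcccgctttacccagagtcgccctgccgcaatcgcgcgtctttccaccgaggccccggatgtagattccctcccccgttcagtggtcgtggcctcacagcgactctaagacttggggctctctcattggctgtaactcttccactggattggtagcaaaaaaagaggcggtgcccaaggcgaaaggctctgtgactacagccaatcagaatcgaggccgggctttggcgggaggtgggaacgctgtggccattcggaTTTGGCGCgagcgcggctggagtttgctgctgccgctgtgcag
RFC3: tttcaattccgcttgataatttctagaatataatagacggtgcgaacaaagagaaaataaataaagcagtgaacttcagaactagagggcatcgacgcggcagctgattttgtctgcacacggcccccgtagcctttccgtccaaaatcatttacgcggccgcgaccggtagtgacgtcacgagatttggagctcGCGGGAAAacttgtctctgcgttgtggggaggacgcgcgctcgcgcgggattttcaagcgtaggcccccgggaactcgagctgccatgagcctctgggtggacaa
PRIM1: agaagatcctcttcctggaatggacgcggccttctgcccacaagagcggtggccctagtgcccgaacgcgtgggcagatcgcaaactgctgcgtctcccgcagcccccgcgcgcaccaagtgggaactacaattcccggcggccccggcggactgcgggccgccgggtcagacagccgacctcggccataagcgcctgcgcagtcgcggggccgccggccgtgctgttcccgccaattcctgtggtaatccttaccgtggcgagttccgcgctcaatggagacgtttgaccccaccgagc
The GINS1 window is chr20:25407423-25407722 on the plus strand, with the match at position 6 after the start. The GINS2 window is chr16:85688905-85689204 on the minus strand, with the match at position -31. The CDT1 window is chr16:88803539-88803838 on the plus strand, with the match at -35. The CDC6 window is chr17:40287629-40287928 on the plus strand, with the match at position 8 after the start. The RFC3 window is chr13:33817899-33818198 on the plus strand, with the match at -55. The PRIM1 window is chr12:56752274-56752573 on the minus strand. The promoter table held 45 windows for 36 of the 41 members, without GINS4, MCM4, MCM5, RPA2 and RPA3. At least 1 of the 4 E2F motifs was present in 20 of the 36 genes (55.6%), against 3.99% of all 27305 genes in the table. By window this was 46.7% of the 45, against 3.31% of all 35116. CCAAT, the letters bound by NF-Y, stood in 64.4% of the member windows and in 34.61% of all windows. TTTGAA, the cell cycle homology element, stood in 2.2% of the member windows and in 15.16% of all. The 3 searches were run separately on both strands, so matches to different motifs may overlap. A match is a description of the letters, not a bound site.

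Values below are log2 intensities that the authors normalized with the RMA method, and a change is the treated mean minus the DMSO mean on that scale. Genes were tested with limma in a separate fit for each model, over all genes that exceeded percentile 40 of their array in 2 or more arrays. A gene is called higher or lower at an adjusted p under 0.05. All members passed this filter in every model. Array medians lay between 5.54 and 6.25. The B-precursor markers averaged 10.96 to 12.11 over the arrays of RS4;11, SEM and REH, and 5.56 to 6.84 in MOLM-13 and the mouse cells. The myeloid markers averaged 4.57 to 6.80 in the 3 B-precursor lines, 9.86 to 11.97 in MOLM-13 and 7.64 to 11.84 in the mouse cells. These averages include LYZ in the human lines, at 13.82 to 14.29 in MOLM-13, and Cd33 in its place in the mouse cells. VPREB1, a surrogate light chain gene and B-precursor marker, did not pass the filter in REH, where it ranged from 2.88 to 7.69. CSF3R and CD14 did not pass it in the 3 B-precursor lines. The averages hide single genes that go the other way. In REH, the myeloid genes MPO and ITGAM read 9.99 to 11.08 and 8.90 to 9.35, and LYZ and CSF1R at most 5.85. LYZ ranged from 4.97 to 11.31 in SEM. The B-precursor gene IGLL1 ranged from 7.13 to 9.13 in MOLM-13, and Cd79b from 7.54 to 9.97 in the mouse cells. Some arrays stood apart in the 3′ minus 5′ signal of the control probe sets, which grows as the 5′ end of the labelled RNA is lost. The GAPDH value was 1.5 and 2.05 in mouse combination replicates 2 and 3, against 0.60 in replicate 1. REH DMSO replicate 3 had an actin value of 3.65, against 2.36 to 3.11 in the other REH arrays. In SEM the actin value was 1.83 to 1.93 in the MI-2-2 and combination arrays, and 2.32 to 2.48 in the EPZ004777 and DMSO arrays.

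The members moved in different directions in different models. In the mouse cells given the combination, 26 of 40 members fell and 1 rose, where 36.2% of all genes tested were called lower and 28.5% higher. In MOLM-13 given EPZ004777, 25 of 41 members rose and 1 fell, where 15.2% of all genes were called higher and 12.5% lower. In MOLM-13 given the combination, 21 rose and 3 fell, beside 23.4% of all genes called higher and 25.5% called lower. The remaining 12 comparisons with DMSO held between 0 and 13 called members. In these bulk cultures, fewer cells in S phase and less mRNA per cell cannot be told apart.

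**Figure D1:**
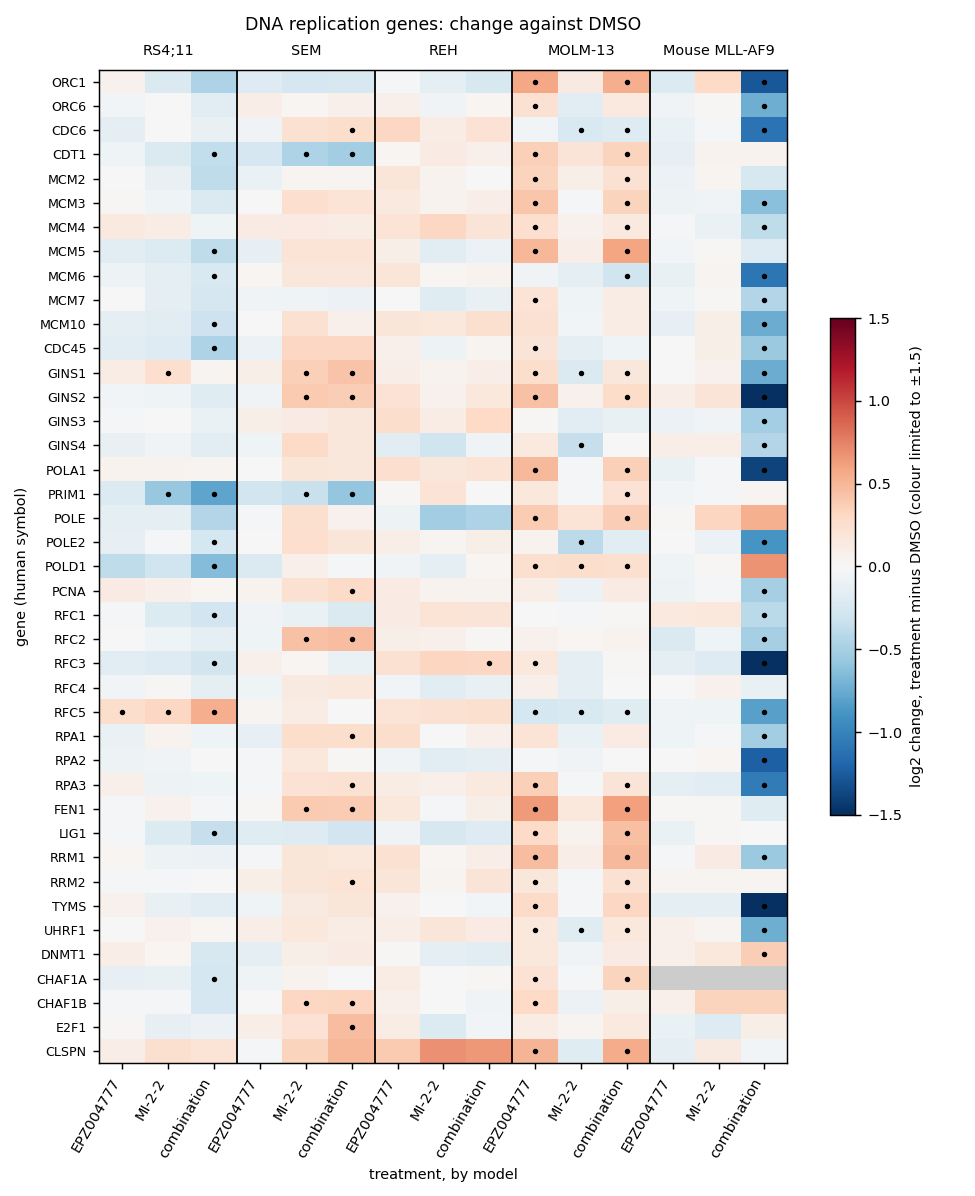
Log2 change against DMSO of each replication gene (rows, human symbols) under each treatment (columns) in the 5 cell models. Colour runs from blue (lower than DMSO) to red (higher) and is limited at 1.5 either way, a black dot marks an adjusted p under 0.05, and grey marks the gene not measured in mouse. The mouse combination column is mostly blue, the MOLM-13 EPZ004777 and combination columns are mostly red.

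**Figure D2:**
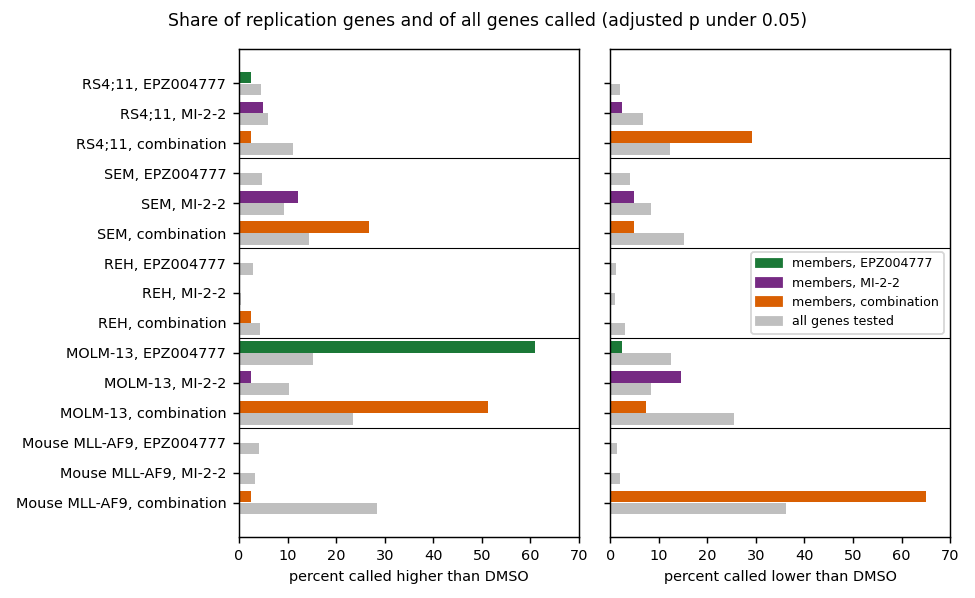
Percent of the replication genes (coloured bars) and of all genes tested (grey bars) called higher, left, or lower, right, than DMSO in each of the 15 comparisons. The mouse combination reached 65% of members lower against 36.2% of all genes, and MOLM-13 with EPZ004777 reached 61% higher against 15.2%.

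In the mouse MLL-AF9 cells the combination lowered members of nearly every step of replication. The median change over the 40 members was -0.509, and over all genes it was -0.101. On the probe sets used here, the largest fall was in Gins2, a subunit of the GINS complex that activates the helicase. Other probe sets of Rpa2, Rrm1 and Rfc3 changed by -3.46, -2.82 and -2.38. Gins2 read 9.89, 8.35 and 8.50 in the combination arrays, against 11.12, 10.85 and 10.94 in the DMSO arrays. The combination arrays all lay below DMSO, with replicate 1 the closest. Replicates 2 and 3 are the arrays with high GAPDH 3′ minus 5′ values. In replicate 1 Gins2 stood at -1.08 relative to the DMSO mean, against -1.49 for Orc1 and -1.18 for Tyms, so its rank depends on the other arrays. The Gins2 change was -2.05 ± 0.315 (SE), a 4.15-fold lower level with an adjusted p of 0.000194 by limma. The other GINS subunits fell less, by 0.74 for Gins1, 0.52 for Gins3 and 0.43 for Gins4.

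Of the 4 licensing genes, Orc1, Orc6 and Cdc6 fell and Cdt1 was not called. Orc1, the largest subunit of the origin recognition complex, read 7.53, 7.59 and 8.14 with the combination, against 9.10, 9.08 and 8.90 with DMSO, a change of -1.27 ± 0.161 (SE, adjusted p = 4.67e-05). A second Orc1 probe set changed by 0.16 in the opposite direction. Cdc6, the ATPase that loads the MCM ring, changed by -1.11 and lay below DMSO on all combination arrays. Cdt1, its partner in loading, had 12.16, 12.80 and 12.92 with the combination, against 12.45, 12.67 and 12.59 with DMSO, so that its groups overlapped. In the helicase group 10 of 12 members fell, with Mcm2 and Mcm5 not called. Mcm6, a subunit of the ring, changed by -1.08, and Mcm10, which helps activate it, by -0.75. Cdc45 changed by -0.55, while its other probe set changed by 0.45 in the opposite direction.

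The calls in the polymerase group were divided, and for some of its genes the direction differed between arrays. Pola1, the catalytic subunit of polymerase alpha, changed by -1.39 ± 0.175 (SE, adjusted p = 4.49e-05), a 2.62-fold lower level. Pole2, the second subunit of polymerase epsilon, changed by -0.88 with a spread of 0.05 (SD) among the combination arrays and 0.01 among the DMSO arrays (n = 3 each). The catalytic subunits Pole and Pold1 and the primase Prim1 were not called. Each lay below all DMSO arrays in combination replicate 1, at -0.41, -0.28 and -0.50 relative to the DMSO mean. Each lay above all DMSO arrays in replicates 2 and 3, the arrays with high GAPDH 3′ minus 5′ values. Among the clamp and its loader, Pcna fell by 0.50 and Rfc1, Rfc2, Rfc3 and Rfc5 fell, but Rfc4 was not called. Of these, Rfc1 had overlapping groups and an adjusted p of 0.0477, and its 2 other probe sets changed by -0.014 and 0.39. Rfc3 read 9.90, 9.24 and 8.69 with the combination, against 10.80, 10.80 and 10.82 with DMSO. The DMSO arrays were within 0.03 of each other and the combination arrays spread over more than 1 unit below them, for a change of -1.53 ± 0.233 (SE, adjusted p = 0.000181).

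All subunits of RPA, which coats single-stranded DNA, fell: Rpa1 by 0.52, Rpa2 by 1.23 and Rpa3 by 1.04. Another probe set changed by -1.96 for Rpa1 and by -3.46 for Rpa2. The flap nuclease Fen1 and the ligase Lig1, which finish lagging-strand fragments, were not called. Of the nucleotide supply genes, Rrm1, the large subunit of ribonucleotide reductase, fell by 0.56, and its 2 other probe sets changed by -2.82 and -0.24. Rrm2, the small subunit, read 13.47, 13.38 and 13.41 with the combination, against 13.43, 13.36 and 13.34 with DMSO, and was not called. With the mean of its probe sets, Rrm2 changed by -0.35 (limma adjusted p = 0.0129). On a probe set not marked for binding related transcripts, it changed by -0.31 (adjusted p = 0.03). Tyms, thymidylate synthase, read 7.60, 7.02 and 6.92 against 8.82, 8.85 and 8.68 with DMSO, a change of -1.60 ± 0.156 (SE, adjusted p = 6.27e-06). Its 2 other probe sets ranged from -0.77 to 1.40, so the direction for Tyms depends on the probe set. Uhrf1, which directs maintenance methylation to new DNA, fell by 0.74. Dnmt1, the maintenance methyltransferase itself, was the 1 member that rose, with 13.28, 13.48 and 13.63 with the combination, against 13.04, 13.15 and 13.09 with DMSO, and its 2 other probe sets rose by 0.39 to 0.63.

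**Figure D3:**
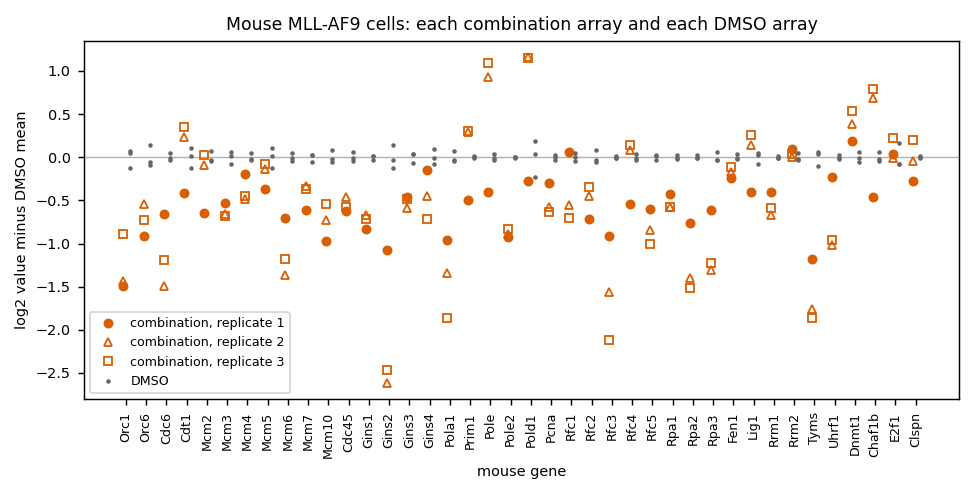
Log2 value minus the DMSO mean for each mouse member, with 1 orange mark per combination array (filled circle, replicate 1, open triangle, replicate 2, open square, replicate 3) and 1 grey point per DMSO array. For Pole, Pold1 and Chaf1b, replicate 1 lies below 0 and replicates 2 and 3 lie above it.

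The 3 combination arrays did not read every gene alike. Replicate 1, the one with low 3′ minus 5′ values, had 36 of 40 members below all DMSO arrays and 3 above, where 47.3% of all genes lay below and 40.1% above. Replicate 2 had 30 below and 8 above, where 51.5% of all genes lay below and 39.5% above. Replicate 3 had 27 below and 10 above, where 51.2% lay below and 40.9% above. Cdt1, Prim1, Pole, Pold1, Rfc4, Lig1 and Chaf1b were below all DMSO arrays in replicate 1 and above all of them in replicates 2 and 3. Pole stood at -0.41 relative to the DMSO mean in replicate 1, and at 0.93 and 1.10 in replicates 2 and 3. Pold1 stood at -0.28 in replicate 1, and at 1.16 and 1.15 in the others. Conversely, Gins2 was 1.08 below the DMSO mean in replicate 1 and 2.62 below it in replicate 2. Without replicates 2 and 3, the combination rested on replicate 1 alone, where the member median was -0.515 and the median over all genes -0.057. With the GAPDH 3′ minus 5′ value as a covariate, which was added after the data were seen, every member called was lower. That value was 0.44 to 0.65 in the mouse arrays outside combination replicates 2 and 3. This fit therefore also rested largely on replicate 1.

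No member was called with either compound alone in the mouse cells. With EPZ004777, 0 of 40 were called either way by limma, and 0 had an unadjusted p under 0.05, where 4.22% of all genes were called higher and 1.38% lower. With MI-2-2, 0 of 40 were called and 0 had an unadjusted p under 0.05, where 3.24% were called higher and 2.02% lower. The changes lay between -0.219 and 0.15 with EPZ004777 and between -0.199 and 0.33 with MI-2-2, with standard errors of 0.078 to 0.334. Against EPZ004777 alone, the combination had 26 members lower and 1 higher, beside 34.8% and 28.6% of all genes. Against MI-2-2 alone, 26 were lower and 1 higher, beside 33.8% and 28.9%. Gins2 changed by -2.16 between the combination and EPZ004777 and by -2.24 between the combination and MI-2-2. The mean of the 6 myeloid markers was 11.69 to 11.84 in the combination arrays, 9.05 to 9.71 with EPZ004777, 9.28 to 9.53 with MI-2-2 and 7.64 to 9.13 with DMSO. Among them, Csf1r ranged from 5.80 to 12.90 and Csf3r from 5.72 to 12.33 over the mouse arrays. Other lists moved too. These means are over all genes of a list with a probe set, also those that did not pass the filter. The 5 stroma and epithelium genes, 3 of which passed, averaged 6.31 to 6.33 with the combination and 5.25 to 5.42 with DMSO. Among them, Col1a1 lay between 4.64 and 11.69 over the mouse arrays. The 4 T and NK genes, 3 of which passed, averaged 5.95 to 6.58 with the combination and 5.08 to 5.23 with DMSO. The 2 erythroid genes, 1 of which passed, averaged 4.69 to 5.26 with the combination and 5.74 to 5.83 with DMSO. The 7 B-precursor genes, 5 of which passed, averaged 6.03 to 6.32 with the combination and 6.68 to 6.77 with DMSO. The part of these markers in the fall of the members was not tested.

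**Figure D4:**
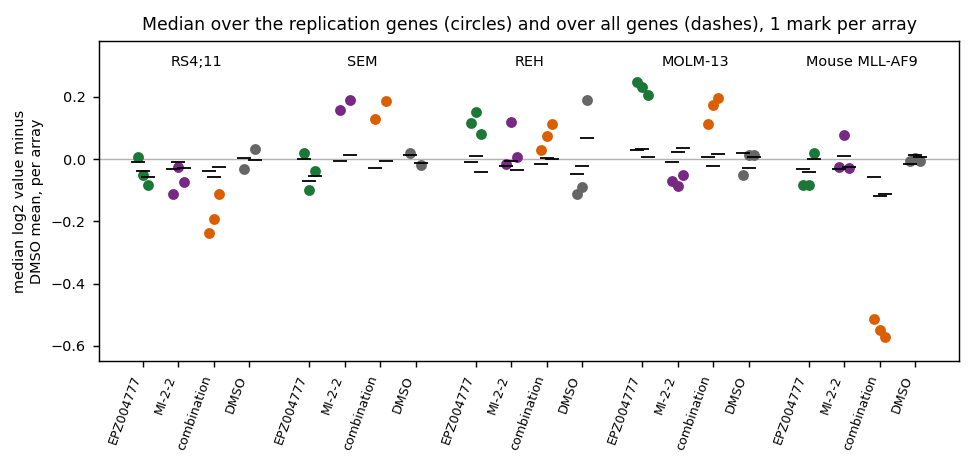
Median over the replication genes (circles) and over all genes tested (dashes) of the log2 value minus the DMSO mean, for each of the 56 arrays, by model and treatment. The 3 mouse combination arrays lie at -0.515, -0.55 and -0.571, and the MOLM-13 EPZ004777 arrays lie at 0.206 to 0.249.

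In MOLM-13, EPZ004777 raised members of all 8 role groups, most of them by small amounts. In the clamp and loader group 1 of 6 rose and 1 fell, and the probe sets of each disagreed in direction, as given below. The median change was 0.22, against 0.025 over all genes. FEN1, the flap endonuclease, read 12.05, 12.18 and 11.92 with EPZ004777, against 11.35, 11.54 and 11.33 with DMSO, a change of 0.64 ± 0.085 (SE, adjusted p = 0.000275) or 1.56-fold. ORC1 read 9.22, 9.23 and 9.21, against 8.62, 8.71 and 8.61 with DMSO, a change of 0.58 (adjusted p = 3.37e-05). CLSPN, which encodes the checkpoint adaptor claspin, read 10.06, 10.15 and 9.98, against 9.41, 9.70 and 9.53. In these genes the EPZ004777 and DMSO arrays did not overlap.

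By role, 3 of 4 licensing genes rose, led by ORC1 and with CDT1 at 0.35. In the helicase group 8 of 12 rose, from CDC45 at 0.19 to MCM5 at 0.49, and MCM3, another ring subunit, rose by 0.41. Of the polymerase genes, POLA1 rose by 0.49, POLE by 0.39 and POLD1 by 0.24. Ribonucleotide reductase and thymidylate synthase rose as well, with RRM1 at 0.46, TYMS at 0.29 and RRM2 at 0.17. RPA3, LIG1, UHRF1 and the chromatin assembly subunits CHAF1A and CHAF1B rose by 0.16 to 0.36. Of the clamp and its loader, RFC3 rose by 0.15, while its 2 other probe sets changed by -0.31 and 0.31. RFC5 was lower by 0.27, at 12.44, 12.45 and 12.52 against 12.72, 12.71 and 12.77. The 2 other probe sets of RFC5 changed by 0.17 and 0.19 in the opposite direction. GINS2 rose by 0.44 on its chosen probe set, which may also bind related transcripts, and its 2 others changed by -0.08 and 0.03.

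**Figure D5:**
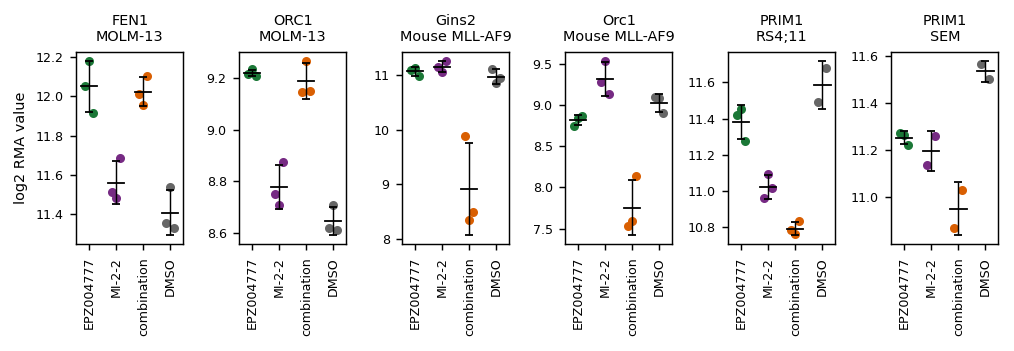
Log2 RMA value of 5 gene and model pairs that carry the main results and of PRIM1 in SEM, with 1 point per array, the mean as a bar and the SD as whiskers, and separate vertical axes that do not start at 0. FEN1 and ORC1 are high with EPZ004777 and with the combination in MOLM-13, Gins2 and Orc1 are low with the combination in mouse cells, and PRIM1 is low with MI-2-2 and with the combination in RS4;11 and SEM.

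MI-2-2 alone at 3 µM moved fewer members in MOLM-13 and mostly downward. There, 6 of 41 fell and 1 rose, where 8.35% of all genes were called lower and 10.2% higher, and the median was -0.032. POLE2 read 10.91, 10.83 and 10.58 with MI-2-2, against 11.10, 11.26 and 11.15 with DMSO, a change of -0.40 ± 0.081 (SE, adjusted p = 0.00626). GINS4 read 7.94, 7.82 and 7.73, against 7.997, 8.35 and 8.16, a change of -0.34 with an adjusted p of 0.0468. CDC6 read 9.46, 9.29 and 9.24, against 9.47, 9.56 and 9.66, and was lower by 0.23. GINS1, RFC5 and UHRF1 were lower by 0.18 to 0.23. POLD1, the catalytic subunit of polymerase delta, was the member that rose, with 7.90, 8.12 and 8.08 against 7.83, 7.75 and 7.73. Without MI-2-2 replicate 2, without MI-2-2 replicate 3, or without DMSO replicate 2 or 3, 2 members were called.

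The combination in MOLM-13 also raised members of most roles, with a median of 0.151 over the members and 0.003 over all genes. FEN1 read 12.01, 11.96 and 12.10, against 11.35, 11.54 and 11.33 with DMSO, a change of 0.62 ± 0.085 (SE, adjusted p = 0.000117). MCM5 read 9.38, 9.57 and 9.54, against 8.90, 8.92 and 8.92, a change of 0.59 (adjusted p = 7.47e-05). CLSPN read 10.14, 10.12 and 10.06, against 9.41, 9.70 and 9.53, and RRM1 rose by 0.49. These groups did not overlap. The members that fell were MCM6, CDC6 and RFC5. MCM6 read 11.93, 11.93 and 11.99, against 12.27, 12.19 and 12.29, a change of -0.30 ± 0.051 (SE, adjusted p = 0.000491). RFC5 was lower by 0.18, at 12.56, 12.53 and 12.58, against 12.72, 12.71 and 12.77, while its 2 other probe sets changed by 0.017 and 0.11 in the opposite direction. CDC6 was lower by 0.19, at 9.36, 9.33 and 9.43, against 9.47, 9.56 and 9.66 with DMSO. Without combination replicate 2, 15 members were called in place of 24.

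The combination was also set against each compound in the same fit. Against MI-2-2, 22 members were higher and 1 lower, beside 17.7% and 21.5% of all genes. CLSPN was 0.74 higher, MCM5 0.48 and FEN1 0.46. Against EPZ004777, 4 members were lower and 0 higher, beside 18.6% and 14.4% of all genes. These were CDC45, at -0.26, MCM6, at -0.24, CHAF1B, at -0.21, and RPA3, at -0.17. The myeloid marker mean was 11.09 to 11.13 with EPZ004777, 10.38 to 10.73 with MI-2-2, 11.94 to 11.97 with the combination and 9.86 to 10.04 with DMSO, and CD14 ranged from 5.47 to 10.27. The part of these markers in the rise of the members was not tested, and the actin 3′ minus 5′ values of all MOLM-13 arrays lay between 0.87 and 1.23.

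At these matched doses and times, the members of the mouse cells and of MOLM-13 stood on opposite sides of DMSO for many genes with the combination. Of the 26 members that fell in the mouse cells, 10 rose in MOLM-13 (38.5%), 3 fell (11.5%) and 13 were not called. Of the 3696 genes that fell in the mouse cells among the 9863 tested in both models and matched by symbol, 15.4% rose in MOLM-13 and 42.6% fell. Of the 13 members not called in the mouse cells, 10 rose in MOLM-13 (76.9%), where 24% of all genes not called in the mouse cells did. Orc1 changed by -1.27 in the mouse cells, and ORC1 by 0.54 in MOLM-13. Pola1 changed by -1.39, and POLA1 by 0.36. Gins2 changed by -2.05, and GINS2 by 0.27. Rrm1 changed by -0.56, and RRM1 by 0.49. The members called lower in both were Cdc6, Mcm6 and Rfc5, the last with the disagreement between human probe sets given above. The models were measured on different arrays and in different species, so the difference between them was not tested.

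In RS4;11 the combination lowered members, while EPZ004777 and MI-2-2 alone moved few. With the combination 12 of 41 fell and 1 rose, where 12.3% of all genes were called lower and 11.2% higher, and the median was -0.174, against -0.044 over all genes. PRIM1, the catalytic subunit of primase, read 10.78, 10.76 and 10.83 with the combination, against 11.49 and 11.68 with DMSO. The groups lay more than 0.6 apart, and the change was -0.79 ± 0.080 (SE, adjusted p = 4.07e-05), a 1.73-fold lower level. POLD1 read 6.90, 6.86 and 7.34, against 7.55 and 7.81, a change of -0.64 with an adjusted p of 0.0126. CDC45 read 10.07, 10.02 and 10.30, against 10.51 and 10.68, a change of -0.47. CDT1, MCM5, MCM6, MCM10, POLE2, RFC1, RFC3, LIG1 and CHAF1A fell by 0.23 to 0.39. The 2 other probe sets of RFC3 changed by -0.47 and 0.13.

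RFC5 was the exception in RS4;11. It read 11.23, 11.24 and 11.15 with the combination, against 10.71 and 10.62 with DMSO, a change of 0.54 ± 0.061 (SE, adjusted p = 9.24e-05). It was also the 1 member called with EPZ004777, at 10.94, 10.94 and 10.90, a change of 0.26, where 4.58% of all genes were called higher and 2.05% lower. With MI-2-2, RFC5 rose by 0.31, GINS1 rose by 0.25 and PRIM1 was lower by 0.56, where 5.91% of all genes were called higher and 6.67% lower. PRIM1 read 10.96, 11.09 and 11.01 with MI-2-2, against the same DMSO arrays as above. GINS1 read 11.75, 11.70 and 11.67, against 11.49 and 11.42. With 2 DMSO arrays, 1 array can decide the count for the combination, which was 3 without DMSO replicate 3 and 18 without combination replicate 3. Against EPZ004777, the combination had 6 members lower and 1 higher, beside 9.46% and 10.1% of all genes. Against MI-2-2 it had 1 lower, POLE2, and 1 higher, RFC5, beside 3.95% and 6.83%.

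In SEM, with the same fusion, more members rose than fell with the combination. With MI-2-2, 5 of 41 members rose (12.2%) and 2 fell, which is near the 9.3% of all genes called higher and 8.49% lower. With the combination, 11 rose (26.8%) and 2 fell, where 14.4% were called higher and 15.2% lower. RFC2, a clamp loader subunit, read 10.95 and 11.07 with MI-2-2 and 10.98 and 11.06 with the combination, against 10.61 and 10.51 with DMSO. GINS1 read 11.89 and 11.84 with the combination, against 11.39 and 11.49, a change of 0.43 (adjusted p = 0.00525). E2F1, the S-phase transcription factor, read 9.85 and 9.81, against 9.46 and 9.28, a change of 0.46. With MI-2-2, GINS2 rose by 0.40, at 11.51 and 11.62 against 11.20 and 11.14, and FEN1 rose by 0.39, at 12.07 and 12.17 against 11.78 and 11.68. With the combination GINS2 rose by 0.37 on this probe set, and its 2 others changed by -0.09 and 0.07.

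PRIM1 and CDT1 fell in SEM. PRIM1 read 11.14 and 11.26 with MI-2-2 and 10.87 and 11.03 with the combination, against 11.57 and 11.50 with DMSO, for changes of -0.34 and -0.58. CDT1 read 9.54 and 9.40 with MI-2-2 and 9.44 and 9.37 with the combination, against 9.98 and 9.88 with DMSO, for changes of -0.46 and -0.53. With EPZ004777, 0 of 41 members were called by limma and 3 had an unadjusted p under 0.05, where 4.7% of all genes were called higher and 4.07% lower. Against EPZ004777, the combination had 13 members higher and 2 lower, beside 15.2% and 11.5% of all genes. Against MI-2-2 it had 0 called by limma and 2 with an unadjusted p under 0.05, beside 2.86% and 1.95%. The MI-2-2 count was 0 without DMSO replicate 3, and the combination count was 5 without combination replicate 3 or DMSO replicate 3. Against EPZ004777 the count was 2 without combination replicate 1. The actin 3′ minus 5′ value separated SEM arrays with MI-2-2, alone or combined, from the rest, and its part cannot be told apart from the treatment. With it as a covariate 0 members were called in either comparison with DMSO, but 0% and 0.0997% of all genes were called there. The member medians were then 0.265 with MI-2-2 and 0.247 with the combination, against 0.18 and 0.164 without it. That fit cannot separate the actin value from the treatment. In it PRIM1 turned to 0.048 with MI-2-2, and PCNA to -0.19 and E2F1 to -0.096 with the combination. The myeloid marker mean was 5.80 to 5.84 with MI-2-2 and 6.62 to 6.80 with the combination, against 4.57 to 4.62 with DMSO. Other lists moved too. The stroma and epithelium mean was 4.94 to 5.17 with MI-2-2 and 5.13 to 5.23 with the combination, against 4.21 to 4.36. The B-precursor mean was 11.29 to 11.47 and 11.08 to 11.18, against 10.96 to 11.02. The part of these markers was not tested.

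REH, the line without a KMT2A fusion, showed few calls, which does not show that its members were unmoved. The member median under EPZ004777 was 0.107, against -0.016 over all genes, and 33 of 41 changes were positive. Leaving out 1 array at a time, this median lay between 0.068 and 0.213. Under MI-2-2 the member median was 0.047 against -0.021, and under both compounds 0.053 against -0.005. With EPZ004777, 0 of 41 were called and 5 had an unadjusted p under 0.05 by limma, where 2.94% of all genes were called higher and 1.17% lower. With MI-2-2, 0 were called and 6 had an unadjusted p under 0.05, where 0.401% were called higher and 0.938% lower. With the combination RFC3 was called, at 11.31, 11.34 and 11.35, against 10.89, 11.10 and 11.07 with DMSO, a change of 0.31 (adjusted p = 0.0439), where 4.37% of all genes were called higher and 3.12% lower. Over the members, the median standard error was 0.114 in REH, against 0.141 in the mouse cells, 0.0839 in RS4;11, 0.0829 in SEM with the combination and 0.0662 in MOLM-13. DMSO replicate 3 read the members 0.19 above the DMSO mean, while replicates 1 and 2 read them 0.113 and 0.09 below. Against EPZ004777 the combination had 0 members called and 0 with an unadjusted p under 0.05, beside 0.086% of all genes called higher and 0.086% lower. Against MI-2-2 it had 0 called and 0 with an unadjusted p under 0.05, beside 1.82% and 0.186%. Without DMSO replicate 3, 6 members were called with EPZ004777 and 4 with the combination, all higher.

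The 3 B-precursor lines received the same doses for the same time, so their responses were compared directly in 1 fit of 32 arrays. A contrast that subtracts the REH effect from the average of the RS4;11 and SEM effects called 6 members lower and 0 higher for the combination, where 10.7% of all genes were called lower and 10% higher. PRIM1 changed by -0.79 in RS4;11 and -0.58 in SEM, and by 0.00 in REH, a difference of -0.69 ± 0.139 (SE, adjusted p = 0.000767). CDT1 changed by -0.37 and -0.53, and by 0.07 in REH, a difference of -0.52 (adjusted p = 0.00478). RFC3 changed by -0.28 and -0.10, and by 0.31 in REH, a difference of -0.50, with the disagreement between RS4;11 probe sets given above. RFC1 changed by -0.28 and -0.22, and by 0.19 in REH, a difference of -0.44 (adjusted p = 8.88e-05). MCM10 and GINS3 differed by -0.35 and -0.26. For MI-2-2, CDT1, PRIM1, RFC1 and RFC3 were lower and RFC4 higher in the KMT2A-AFF1 lines, beside 5.72% and 7.91% of all genes. For EPZ004777, RFC3 was lower by 0.27, beside 2.76% of all genes called lower and 2.49% higher. Without REH DMSO replicate 3, the EPZ004777 count was 10 in place of 1, and without REH DMSO replicate 1 or 2, the MI-2-2 count was 3 or 8 in place of 5.

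The 2 KMT2A-AFF1 lines also differed from each other. In a contrast added after the data were seen, RS4;11 minus SEM, 8 members were lower and 1 higher in their response to the combination, where 6.3% of all genes were called lower and 6.57% higher. CDC45 changed by -0.47 and by 0.31, a difference of -0.78 ± 0.190 (SE, adjusted p = 0.00626). RFC5, read here by another probe set than in RS4;11 alone, changed by 0.55 and by -0.01, a difference of 0.56 (adjusted p = 0.00167). CHAF1B, GINS2, E2F1, POLE2, MCM10 and GINS1 differed by -0.57 to -0.38. The CDC6 difference depended on the probe set. The joint fit reads CDC6 by another probe set than the fits of RS4;11 and SEM alone, and there it changed by -0.21 in RS4;11 and by 0.64 in SEM, a difference of -0.85 (adjusted p = 0.000887). On the probe set of the single-line fits the changes were -0.11 and 0.27, a difference of -0.38 (adjusted p = 0.0701). For MI-2-2, MCM10 differed by -0.38 and CDC6 by -0.58, or by -0.24 (adjusted p = 0.371) on that other probe set, beside 4.12% of all genes called lower and 2.64% higher. For EPZ004777, limma called 0 of 41 and 1 had an unadjusted p under 0.05, beside 1.99% and 1.95%. The combination count was 5 without DMSO replicate 3 of RS4;11 or of SEM and 16 without REH DMSO replicate 3. The actin 3′ minus 5′ values of SEM moved with treatment, as given above, and with them as a covariate in the joint fit, added after the data were seen, 22 members were called for the combination and 12 for MI-2-2, where 16.2% and 8.98% of all genes were, and GINS1 was no longer called.

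Other replication and S-phase genes were taken from a list of 52, with 51 tested per human line and 50 in mouse. In MOLM-13 with EPZ004777, 23 rose (45.1%) and 3 fell (5.88%), against 15.2% and 12.5% of all genes. The transcriptional repressor E2F8 rose by 0.96, the thymidine kinase TK1 by 0.83 and the histone chaperone ASF1B by 0.60. With the combination in MOLM-13, 25 rose (49%) and 10 fell (19.6%), against 23.4% and 25.5% of all genes, with POLD2, a polymerase delta subunit, at -0.89 and ORC5 at -0.71. With MI-2-2 in MOLM-13, 10 fell (19.6%) and 0 rose, against 8.35% and 10.2% of all genes. In the mouse cells with the combination, 18 fell (36%) and 8 rose (16%), where 36.2% and 28.5% of all genes did. The share of this list that fell was thus near that of all genes. Orc5 changed by -2.00, Pold2 by -1.77 and Orc2 by -1.72, while the transcription factor E2f2 rose by 1.71. In RS4;11 the combination gave 10 lower (19.6%) and 3 higher (5.88%), against 12.3% and 11.2% of all genes. In SEM it gave 14 higher (27.5%) and 0 lower, against 14.4% and 15.2% of all genes. Those that rose included the cyclins CCNE2, at 1.26, and CCNE1, at 1.16.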

How the data were processed

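Total RNA was amplified with the NuGEN Ovation system and hybridised to human or mouse Affymetrix arrays, per the labels' protocols. The authors deposited log2 values, made with RMA in the affy package and R 3.0.2 per the submitters' processing notes. These arrays give no read depth, and their number limits the precision. Of 54675 human and 45101 mouse probe sets, 41091 and 34945 carried 1 gene symbol, and each gene was read by the one with the highest mean in that model. The values were fitted with limma 3.58.1 in R 4.3.3 as 4 group means per model, and p-values were adjusted by the Benjamini-Hochberg method over all genes tested. The filter kept genes above percentile 40 on at least 2 arrays. MOLM-13 and the mouse cells appeared to be normalized apart from the 3 B-precursor lines, so levels of the members were not compared between them. The marker averages describe each model and are not on a common scale. Per-array values are given for the called members with the 3 largest rises and falls of each treatment and for at least 1 per role. The scripts were tested on simulated data. Replicate numbers were not used as pairs: in no model did every same-numbered treated and DMSO array correlate above 0.1 in their deviations from the group means. Between treated groups they did so for EPZ004777 and MI-2-2 in REH and for MI-2-2 and the combination in SEM. The members and lists were chosen with earlier results of these data known.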

Additional observations from a re-analysis of the deposited data

Results flagged for a closer look

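By a limma test of the difference, the response of the KMT2A-AFF1 lines differed from that of REH in 12 cases. Each is given as the mean change in RS4;11 and SEM minus the change in REH. These were 6 of 41 members for the combination, 5 for MI-2-2 and 1 for EPZ004777. Of all genes, 20.7%, 13.6% and 5.25% were called either way, so members were called no more often than all genes. For EPZ004777 the difference was -0.27 for RFC3. For MI-2-2 it was -0.46 for CDT1, -0.65 for PRIM1, -0.36 for RFC1, -0.40 for RFC3 and 0.25 for RFC4. For the combination it was -0.52 for CDT1, -0.35 for MCM10, -0.26 for GINS3, -0.69 for PRIM1, -0.44 for RFC1 and -0.50 for RFC3. In RS4;11, another RFC3 probe set changed by 0.13 with the combination.

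The response of RS4;11 differed from that of SEM by a test of the difference in 11 cases, in a contrast chosen after seeing the data. These were 2 of 41 members for MI-2-2 and 9 for the combination, beside 6.77% and 12.9% of all genes called either way. For MI-2-2 the difference was -0.58 for CDC6 and -0.38 for MCM10. Both CDC6 differences were not called on its other probe set. For the combination it was -0.85 for CDC6, -0.38 for MCM10, -0.78 for CDC45, -0.38 for GINS1, -0.55 for GINS2, -0.45 for POLE2, 0.56 for RFC5, -0.57 for CHAF1B and -0.55 for E2F1.

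In 19 cases every treated array lay on one side of DMSO in the mouse cells and on the other side in MOLM-13. The difference was not tested, and the mouse change is given first. For the combination this held for 14 of 40 members (35%), where 12.6% of the 9863 genes tested in both models did so. It held for 3 members under EPZ004777 (7.5%), beside 7.05% of all genes, and for 2 under MI-2-2 (5%), beside 5.85%. The single-compound shares are near those of all genes, and no mouse change was called there. With EPZ004777 the changes were -0.21 and 0.58 for ORC1, -0.095 and 0.49 for POLA1, and -0.15 and 0.15 for RFC3. With MI-2-2 they were 0.085 and -0.14 for CDC45 and 0.041 and -0.18 for UHRF1. With the combination they were -1.27 and 0.54 for ORC1, -0.73 and 0.15 for ORC6, -0.62 and 0.34 for MCM3, -0.38 and 0.15 for MCM4, and -0.44 and 0.11 for MCM7. They were -0.74 and 0.17 for GINS1, -2.05 and 0.27 for GINS2, -1.39 and 0.36 for POLA1, -0.52 and 0.13 for RPA1, and -1.04 and 0.19 for RPA3. They were -0.18 and 0.62 for FEN1, -0.56 and 0.49 for RRM1, -1.60 and 0.31 for TYMS, and -0.74 and 0.16 for UHRF1. Orc1 and Tyms each have another mouse probe set that changed in the opposite direction. In MOLM-13, another probe set changed by -0.31 for TYMS and by -0.048 for GINS2 with the combination, and by -0.31 for RFC3 with EPZ004777.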

How the results depend on the processing

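Counts below are members called by limma under each alternative, and the cause of each move was not tested unless stated. Without the filter on low values the counts were 0 for RS4;11 with EPZ004777, 1 for RS4;11 combination against MI-2-2, 0 for the REH combination, 4 for MOLM-13 with MI-2-2, 2 for MOLM-13 combination against EPZ004777, and 0 for the KMT2A-AFF1 against REH difference with EPZ004777. With arrays centred on their medians the first, the third and the last of these were 0, and the RS4;11 against SEM difference with MI-2-2 was 1. With the mean of all probe sets they were 5 for RS4;11 with MI-2-2, 14 for RS4;11 combination against EPZ004777, 2 for SEM and 1 for REH with EPZ004777, 2 for the REH combination, 6 for the KMT2A-AFF1 difference with EPZ004777, and 4 and 14 for the RS4;11 against SEM differences with MI-2-2 and the combination. With the replicate block, where the arrays share only a number, they were 0 for RS4;11 with EPZ004777, 1 for RS4;11 combination against MI-2-2, 1 for SEM with MI-2-2, 5 for the SEM combination against DMSO and against EPZ004777, 0 for the REH combination, 4 for MOLM-13 with MI-2-2, and 0 for the KMT2A-AFF1 difference with EPZ004777 and the RS4;11 against SEM difference with MI-2-2.

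With array weights the counts were 2, 5, 14 and 5 in RS4;11 (EPZ004777, MI-2-2, combination against EPZ004777 and against MI-2-2), 2 and 11 in SEM (EPZ004777, MI-2-2), 1 and 0 in REH (EPZ004777, combination), 12 and 7 in MOLM-13 (MI-2-2, combination against EPZ004777), 7 for the KMT2A-AFF1 difference with EPZ004777, and 1, 11 and 20 for the RS4;11 against SEM differences. In SEM the actin value cannot be separated from the treatment. With the actin covariate the SEM counts were 0 with MI-2-2 and with the combination against DMSO and EPZ004777. The member medians with this covariate were 0.265, 0.247 and 0.226, and at most 0.0997% of all genes were called. In the joint fit, where it was added after seeing the data, the KMT2A-AFF1 difference with EPZ004777 was 5, and the RS4;11 against SEM differences were 12 with MI-2-2 and 22 with the combination. Without REH DMSO replicates 1 and 3 the REH combination count was 0, the KMT2A-AFF1 difference with EPZ004777 was 3, and the RS4;11 against SEM differences were 5 with MI-2-2 and 17 with the combination. Without mouse combination replicates 2 and 3, the mouse counts were 1 with EPZ004777 and 1 with MI-2-2. After quantile normalization the KMT2A-AFF1 difference with EPZ004777 was 0, and with probe sets free of the s or x mark the RS4;11 against SEM difference with MI-2-2 was 1. In 1 fit of the 44 human arrays the counts were 0 for RS4;11 with EPZ004777, 4, 6 and 7 in REH, and 2 for MOLM-13 combination against EPZ004777.

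Leaving out 1 array at a time, where a lone array is taken to vary like the other groups, gave 0 to 1, 1 to 3 and 3 to 18 calls in RS4;11 with EPZ004777, MI-2-2 and the combination, and 4 to 12 and 0 to 4 for its combination against each compound. It gave 0 to 8 and 5 to 13 in SEM with MI-2-2 and the combination and 2 to 15 for the combination against EPZ004777, 0 to 6, 0 to 2 and 0 to 4 in REH, 18 to 28, 2 to 9 and 15 to 25 in MOLM-13, and 2 to 6 for its combination against EPZ004777. In the mouse cells it gave 0 to 1 with MI-2-2 and 26 to 31 with the combination. The KMT2A-AFF1 differences ranged over 0 to 10, 3 to 8 and 5 to 9, and the RS4;11 against SEM differences over 0 to 4 with MI-2-2 and 5 to 16 with the combination.

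Some genes turned direction. With marked probe sets left out, RFC1 in RS4;11 (combination against EPZ004777) was 0.16, GINS2 was -0.0905 in the SEM combination, and -0.080 and -0.048 in MOLM-13 with EPZ004777 and the combination, and Rrm2 in the mouse combination was -0.31. With the actin covariate in SEM, PRIM1 was 0.048 with MI-2-2, PCNA -0.19 and E2F1 -0.096 with the combination, and PRIM1 0.021, PCNA -0.17, E2F1 -0.12 and CLSPN -0.56 for the combination against EPZ004777. With the mean of probe sets, RFC5 in MOLM-13 with EPZ004777 was 0.033, Rrm2 in the mouse combination -0.35, Cdc45 against EPZ004777 0.10, and Tyms 0.17 and 0.19 against EPZ004777 and MI-2-2. Without mouse combination replicates 2 and 3, Prim1 was -0.50, Rfc1 0.057 and Chaf1b -0.47, and with the GAPDH covariate, an alternative chosen after seeing the data, Cdt1 was -0.42, Prim1 -0.42 and Rfc1 0.022. Of the calls against DMSO, 20 of 27 in the mouse combination, 13 of 26 in MOLM-13 with EPZ004777, 11 of 24 in the MOLM-13 combination, 2 of 13 in the RS4;11 combination and 0 of 13 in the SEM combination were kept in every alternative run.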

Other observations

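SAMHD1, a triphosphohydrolase that degrades the nucleotides used in replication, rose with the combination in all 5 models. The changes were 0.88 in RS4;11, 1.21 in SEM, 1.14 in REH, 1.70 in the mouse cells and 1.07 in MOLM-13, with limma adjusted p-values of 1.68e-05, 1.16e-05, 0.000123, 3.17e-07 and 2.22e-07. With EPZ004777 alone it rose by 0.77 in SEM, 0.67 in REH and 0.51 in MOLM-13. With MI-2-2 alone it rose by 0.61 in RS4;11 and 0.76 in SEM. The human probe sets used for SAMHD1 carry the mark for possible binding to related transcripts. SAMHD1 was chosen for description after its values were seen.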
